A study of Mus musculus with 3 samples.

Results

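Polycomb repressive complex 2 (PRC2) is the enzyme that places H3K27me3, and the marks at its own genes were described here. The 10 PRC2 subunit genes were Ezh1, Ezh2, Eed, Suz12, Rbbp4, Rbbp7, Jarid2, Mtf2, Aebp2 and Epop, chosen by name from 21938 protein-coding genes. All 10 were found in the gene annotation, and no member was dropped.

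Chromatin immunoprecipitation sequencing (ChIP-seq) had been done in the mouse embryonic stem cell line F123, which is male and a hybrid F1 of S129/Jae and Cast, and the deposited values were positions of enriched regions. One list each was given for H3K27me3 (rabbit antibodies), for RNA polymerase II with phosphate at serine 5 of its C-terminal repeats (Pol2-S5p, mouse monoclonal antibody CTD4H8), and for the polymerase with phosphate at serine 7 (Pol2-S7p, rat monoclonal antibody 4E12). The cells had been grown on inactivated mouse embryonic fibroblasts and moved to gelatin without feeders before harvest, and the labels name no treatment for any of the 3 libraries. With 1 library per mark from 1 cell line there was no replicate spread, so no test was made and every value is a description of these libraries.

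In PRC2, Ezh2 or Ezh1 carries the methyltransferase domain, and neither is active without Suz12, the scaffold, and Eed, which binds H3K27me3 and stimulates the enzyme. Rbbp4 and Rbbp7 are histone-binding proteins of the complex that also serve other chromatin complexes. Further subunits define different forms of the complex: Jarid2 and Aebp2 belong to one, and Mtf2, a Polycomb-like protein that binds unmethylated CpG-rich DNA, and Epop, which also binds the elongin proteins, to another. In embryonic stem cells PRC2 is known for its place at CpG-rich promoters of silent developmental genes, where polymerase carries serine 5 phosphate without the serine 7 phosphate of productive genes.

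A promoter was scored in a window of 2 kb centred on a transcription start. The window held a mark when a region of that list touched it by at least 1 bp. A promoter with Pol2-S5p and Pol2-S7p and no H3K27me3 was called Active, with all 3 marks PRC-Active (PRCa), and with H3K27me3 and Pol2-S5p alone PRC-repressed (PRCr). The lists separate neither alleles nor cells. Whether the marks of a PRCa promoter lay together on the same allele in the same cell is therefore unknown. All 10 genes carried both forms of the polymerase at their promoters. H3K27me3 was at 2 of the 10, Ezh1 and Aebp2, which were PRCa. The other 8, among them Ezh2, Eed and Suz12 of the catalytic core, were Active.

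Reference promoter sequence is shown for 4 of these genes, because they are the pair of PRCa genes and the pair of genes whose Active state held under every setting tried. It is RefSeq sequence of GRCm38.p6 (mm10), written 5′ to 3′ on the strand of the gene in lower case, with each CpG dinucleotide in capitals. The Ezh1 stretch (chr11:101226464-101226713, minus strand) and the Suz12 stretch (chr11:79992856-79993105, plus strand) end at the base before the outermost start. The Ezh2 stretch (chr6:47595059-47595183, minus strand) is the part of its RefSeq promoter that lies in no exon. The RefSeq start of Ezh2 is inside the gene, so this stretch follows the outermost start of the annotation. The Aebp2 stretch (chr6:140624659-140624908, plus strand) ends before the start of the second of its 3 RefSeq promoters and lies inside the H3K27me3 region.
Ezh1: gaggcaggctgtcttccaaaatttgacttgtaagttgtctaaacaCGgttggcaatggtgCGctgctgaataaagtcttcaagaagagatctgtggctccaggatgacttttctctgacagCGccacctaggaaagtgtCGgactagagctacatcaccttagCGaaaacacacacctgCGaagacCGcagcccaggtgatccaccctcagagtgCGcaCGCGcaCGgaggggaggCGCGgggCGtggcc
Aebp2: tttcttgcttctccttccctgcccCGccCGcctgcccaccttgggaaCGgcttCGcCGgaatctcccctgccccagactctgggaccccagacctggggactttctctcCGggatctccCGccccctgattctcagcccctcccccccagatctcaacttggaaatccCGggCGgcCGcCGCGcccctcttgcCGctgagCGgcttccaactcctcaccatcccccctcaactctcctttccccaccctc
Ezh2: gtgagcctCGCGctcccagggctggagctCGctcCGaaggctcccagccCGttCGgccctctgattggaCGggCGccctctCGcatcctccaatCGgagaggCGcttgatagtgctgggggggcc
Suz12: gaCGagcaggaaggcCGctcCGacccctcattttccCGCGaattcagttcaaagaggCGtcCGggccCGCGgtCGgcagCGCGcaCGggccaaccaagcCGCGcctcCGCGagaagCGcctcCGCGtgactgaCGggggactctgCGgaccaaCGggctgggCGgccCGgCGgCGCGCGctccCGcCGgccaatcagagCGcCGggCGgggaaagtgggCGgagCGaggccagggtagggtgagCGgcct
The stretch at Suz12 held 37 CpG in 250 bases, against 14 in 250 bases for both Ezh1 and the Aebp2 stretch, and the stretch at Ezh2 held 11 in 125 bases.

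Counted over 250 bases before to 50 after the start, the observed over expected CpG was 0.882 at Ezh1, 0.999 at Ezh2, 0.758 at Eed, 1.09 at Suz12, 1.12 at Rbbp4 and 0.940 at Rbbp7. Jarid2 had 2 promoters at 0.810 and 0.831, Mtf2 had 2 at 1.09 and 0.132, and Aebp2 had 3 at 0.232, 0.774 and 0.215. RefSeq promoters were matched for 9 of the 10 genes, 13 promoters in all, and for Epop none was used here. Of the 13, 10 were above 0.567, the median of 21263 protein-coding promoters, and every matched gene had at least 1 of these. The medians of Active promoters (0.781) and of PRCa promoters (0.748) lay near each other. Of the PRCa genes, Ezh1 (0.882) and the second Aebp2 promoter (0.774) were above Eed (0.758), which was Active. The Aebp2 promoter at the outermost start (0.232) was below every promoter of the Active genes except that of 0.132 at Mtf2. Of the letters searched on both strands, CCAAT was in a promoter of 8 of the 9 genes, with Ezh1 as the exception, and in 38.2% of all promoters. GGGCGG was in a promoter of 6 of 9 genes, not in those of Ezh1, Ezh2 or Eed, and in 46.2% of all. TTTCCCGC was found at Suz12 (1.41% of all promoters), TTTGGCGC at Ezh2 (0.635%) and TATAAA at Jarid2 (12.6%). CCGGAAGT, TGACGTCA, AAGATGGC and GCGCATGC were in no window of the 9 genes and in 5.15%, 2.23%, 3.05% and 3.52% of all promoters. The searched words do not contain one another, genes with several promoters had more bases searched, and a match is a description of letters, not of a bound site.

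Over all protein-coding genes, H3K27me3 touched the window of 37.7%, Pol2-S5p of 69.9% and Pol2-S7p of 60.4%. Among the PRC2 genes H3K27me3 was at 2 of 10, a lower share, and each polymerase form at 10 of 10, a higher one. The Active state held 35.9% of protein-coding genes and 8 of the 10 members. PRCa held 23.9% of protein-coding genes and 2 of the 10 members, a share near that of all genes. Many of all genes lacked polymerase, and among those with both forms, as in the 10 members, 7877 were Active and 5242 PRCa. Where a gene had more than 1 start, the one with the most Pol2-S5p in its window was used, with ties settled by Pol2-S7p cover and then transcript length. Pol2-S5p was tied between the chosen and outermost starts of Ezh2, Jarid2 and Aebp2. Because wide polymerase regions fill the window of internal starts too, this rule took a start 63225 bp inside Ezh2 (a retained intron transcript), 16142 bp inside Eed, 12491 bp inside Mtf2, 1797 bp inside Jarid2 and 1026 bp inside Aebp2. Over all protein-coding genes the chosen start was over 1 kb from the outermost one at 16.9%, and the state was the same at both starts at 92.4%. It was the same at both for all 10 PRC2 genes, and the values given for a member are those of the outermost start unless the chosen one is named. States of other genes are those of the chosen start.

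The label of the cells was checked with marker genes. All 8 embryonic stem cell markers (Pou5f1, Nanog, Sox2, Zfp42, Esrrb, Klf4, Tdgf1 and Dppa5a) carried both polymerase forms, with H3K27me3 as well at Sox2 and Klf4. At outermost starts Esrrb had H3K27me3 alone, and the other 7 kept both forms. Of 8 fibroblast markers, Fbln2 alone carried both polymerase forms, together with H3K27me3. Thy1 was PRCr, and the other 6 (Col1a1, Col1a2, Col3a1, Postn, Lum and Dcn) had no polymerase at their promoters. The lists held 17342 regions of H3K27me3, 29222 of Pol2-S5p and 22320 of Pol2-S7p, with median widths of 3400, 2000 and 2200 bp. The score of a region is in a unit that the sources used here do not state, and it was used only as a rank inside its list.

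**Figure D1:**
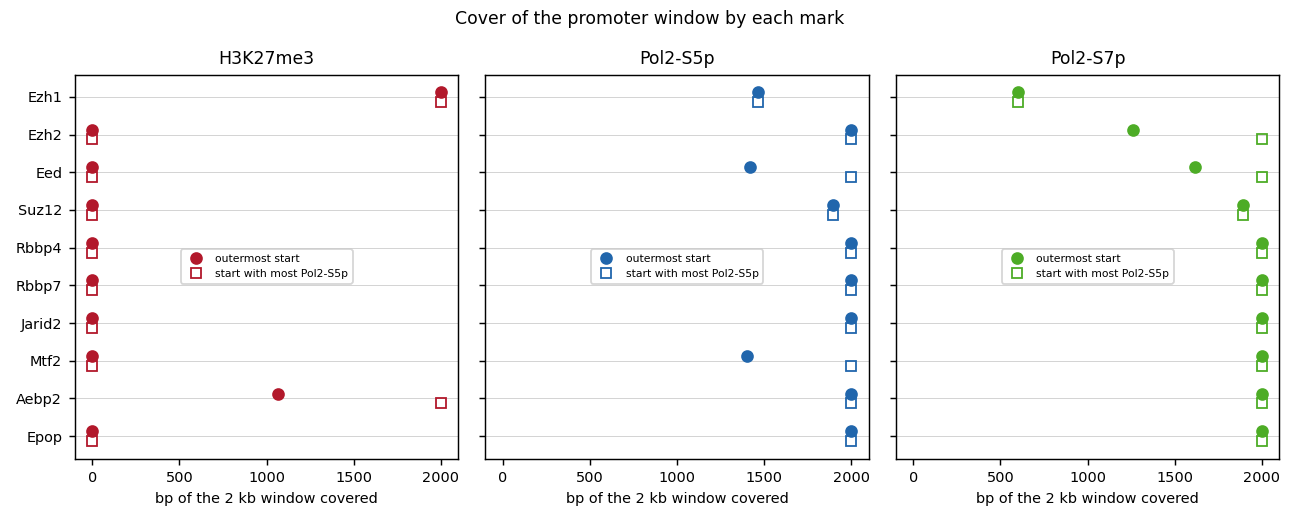
Number of bp of the 2 kb promoter window covered by regions of each mark (x axis, bp) at each PRC2 subunit gene (y axis). Filled circles are the outermost start and open squares the start chosen by most Pol2-S5p, with ties settled by Pol2-S7p and transcript length. H3K27me3 was above 0 at Ezh1 and Aebp2 alone, and no gene was at 0 for either polymerase form.

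The catalytic genes differed. Ezh1, on chromosome 11 from 101191115 to 101226463 on the minus strand, had its window filled by H3K27me3 (2000 bp), with 1463 bp of Pol2-S5p and 600 bp of Pol2-S7p. Its H3K27me3 region was 24600 bp wide and reached from 23536 bp before the start to 1063 bp after it, so nearly all of it lay upstream of the gene. The Pol2-S5p region, 9000 bp wide, also lay mainly upstream, from 8536 bp before to 463 bp after the start. The Pol2-S7p region ended at the same base and was 600 bp wide, wider than 3.55% of its list, with a score (57.2) higher than that of 97.5% of the Pol2-S7p regions. Ezh1 thus had wide H3K27me3 of middle rank (score 8.14, above 49.3% of the list) and a narrow Pol2-S7p region of high rank at the same start. Of its 9 annotated starts, 4 were PRCa, 4 had no mark and 1 had Pol2-S7p alone.

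Ezh2, on chromosome 6 from 47530139 to 47595341 on the minus strand, had no H3K27me3 in its window. Pol2-S5p covered all 2000 bp and Pol2-S7p 1259 bp. Both regions were narrow, 2600 bp for Pol2-S5p (score 46.1) and 1400 bp for Pol2-S7p (score 84.6), and both ended 1141 bp into the gene. The Pol2-S7p region ranked 109 of 22320 by score, the highest rank of any polymerase region at a member's start. Between these and a second pair of regions Ezh2 carried neither form. The second pair lay at the far end of the gene, a Pol2-S5p region of 25800 bp that began 53142 bp after the start and a Pol2-S7p region of 12800 bp that began 60342 bp after it, and both reached beyond the end of the gene. Of the 12 starts of Ezh2, 5 were Active, 5 had no mark and 2 had Pol2-S5p alone.

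The core subunits Eed and Suz12 were Active in different ways. At Eed (chromosome 7, 89954654 to 89980983, minus strand) a Pol2-S5p region of 30200 bp and a Pol2-S7p region of 30000 bp ran from 416 bp and 616 bp before the start past the end of the gene, and all 10 starts were Active. The window of the outermost start held 1417 bp of Pol2-S5p and 1617 bp of Pol2-S7p. The start of E230029C05Rik, a long noncoding RNA on the opposite strand, lies 260 bp inside Eed and was also Active. At Suz12 (chromosome 11, 79993106 to 80034123, plus strand) the start had a narrow Pol2-S5p region of 2400 bp and a Pol2-S7p region of 3200 bp, which both ended 893 bp into the gene and gave 1894 bp of cover in the window. Their scores, 38.2 and 31.9, were above those of 90.0% and 87.0% of their lists. A second Pol2-S7p region of 44200 bp then began 7694 bp after the start and ran past the end, with no Pol2-S5p region over that stretch inside the gene. Suz12 was therefore the member with the widest gap between its polymerase marks over the gene, 2.18% for Pol2-S5p and 83.4% for Pol2-S7p.

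The histone-binding subunits lay in wide polymerase regions that held other genes as well. Rbbp4 (chromosome 4, 129307100 to 129335370, minus strand) was covered whole by a Pol2-S5p region of 119600 bp and a Pol2-S7p region of 97200 bp, and all 4 of its starts were Active. Its start lies 325 bp from that of Zbtb8os, a protein-coding gene on the opposite strand, so the windows of the pair share most of their bases. Rbbp7 (chromosome X, 162760402 to 162779092, plus strand) lay in a Pol2-S5p region of 287600 bp, wider than 99.95% of that list, whose score of 3.43 was above that of 2.87% of it. A Pol2-S7p region of 78800 bp began 1402 bp before the Rbbp7 start. An H3K27me3 region of 90200 bp ended 1403 bp before the same start, at the base next to the first base of the Pol2-S7p region. The score of that H3K27me3 region was also low, 4.09, above that of 4.15% of its list. A male line has 1 copy of the X chromosome, and these scores were ranked among regions of all chromosomes. The part of copy number in the ranks was not tested. The 2 kb window reaches 1 kb before the start, so Rbbp7 was Active, and a window of 5 kb at this start, chosen after the values were seen, would make it PRCa.

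Of the accessory subunits, Jarid2 and Aebp2 belong to the same form of the complex and differed in H3K27me3. Jarid2 (chromosome 13, 44729474 to 44921643, plus strand), the longest member at 192170 bp, had a filled window for both polymerase forms, in a Pol2-S5p region of 226400 bp and a Pol2-S7p region of 199800 bp, and all 16 starts were Active. Its nearest H3K27me3 region was 400 bp wide and lay inside the gene, 173726 bp after the start, with 59 of its bases in an exon and the rest in an intron. Aebp2 (chromosome 6, 140622663 to 140678472, plus strand) had an H3K27me3 region of 2400 bp from 63 bp before to 2336 bp after the start, and so covered 1063 bp of the window at the outermost start and 2000 bp at the chosen one. The score of that region, 6.96, was above that of 36.5% of the list. Pol2-S5p and Pol2-S7p filled the window at both starts, in regions of 39800 and 95200 bp. Of the 9 starts of Aebp2, 4 were PRCa and 5 were Active. The start of Gm44013, a long noncoding RNA on the opposite strand, lies 240 bp before that of Aebp2 and was PRCa through the same region.

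The H3K27me3 regions of the PRCa pair were of different size. Over the 5242 PRCa genes the widest H3K27me3 region at the window had a median width of 15000 bp (quartiles 4000 and 52400 bp). That of Ezh1, 24600 bp, was above this median, and that of Aebp2, 2400 bp, was at the narrow end, where 14.9% of the PRCa genes had a region as narrow or narrower. The H3K27me3 region of Aebp2 had a GC share of 67.5% and an observed over expected CpG of 0.820. The regions nearest the other 9 genes had values between 0.142 and 0.549, with 0.285 for the wide region at Ezh1.

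Mtf2 and Epop, of the other form of the complex, had both polymerase forms and no H3K27me3. Mtf2 (chromosome 5, 108065674 to 108109004, plus strand) had 1400 bp of Pol2-S5p and 2000 bp of Pol2-S7p in its window, from regions of 33200 and 62200 bp, and all 12 starts were Active. Epop (chromosome 11, 97627389 to 97629702, minus strand), the shortest member at 2314 bp with 1 start, had a filled window for both forms. Its Pol2-S5p region was 168800 bp wide and reached 137297 bp upstream of the start, and its Pol2-S7p region was 37000 bp wide and began 1497 bp before the start. The scores at Epop, 20.1 for Pol2-S5p and 27.4 for Pol2-S7p, were above those of 76.5% and 82.9% of their lists, although the regions were wide.

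**Figure D2:**
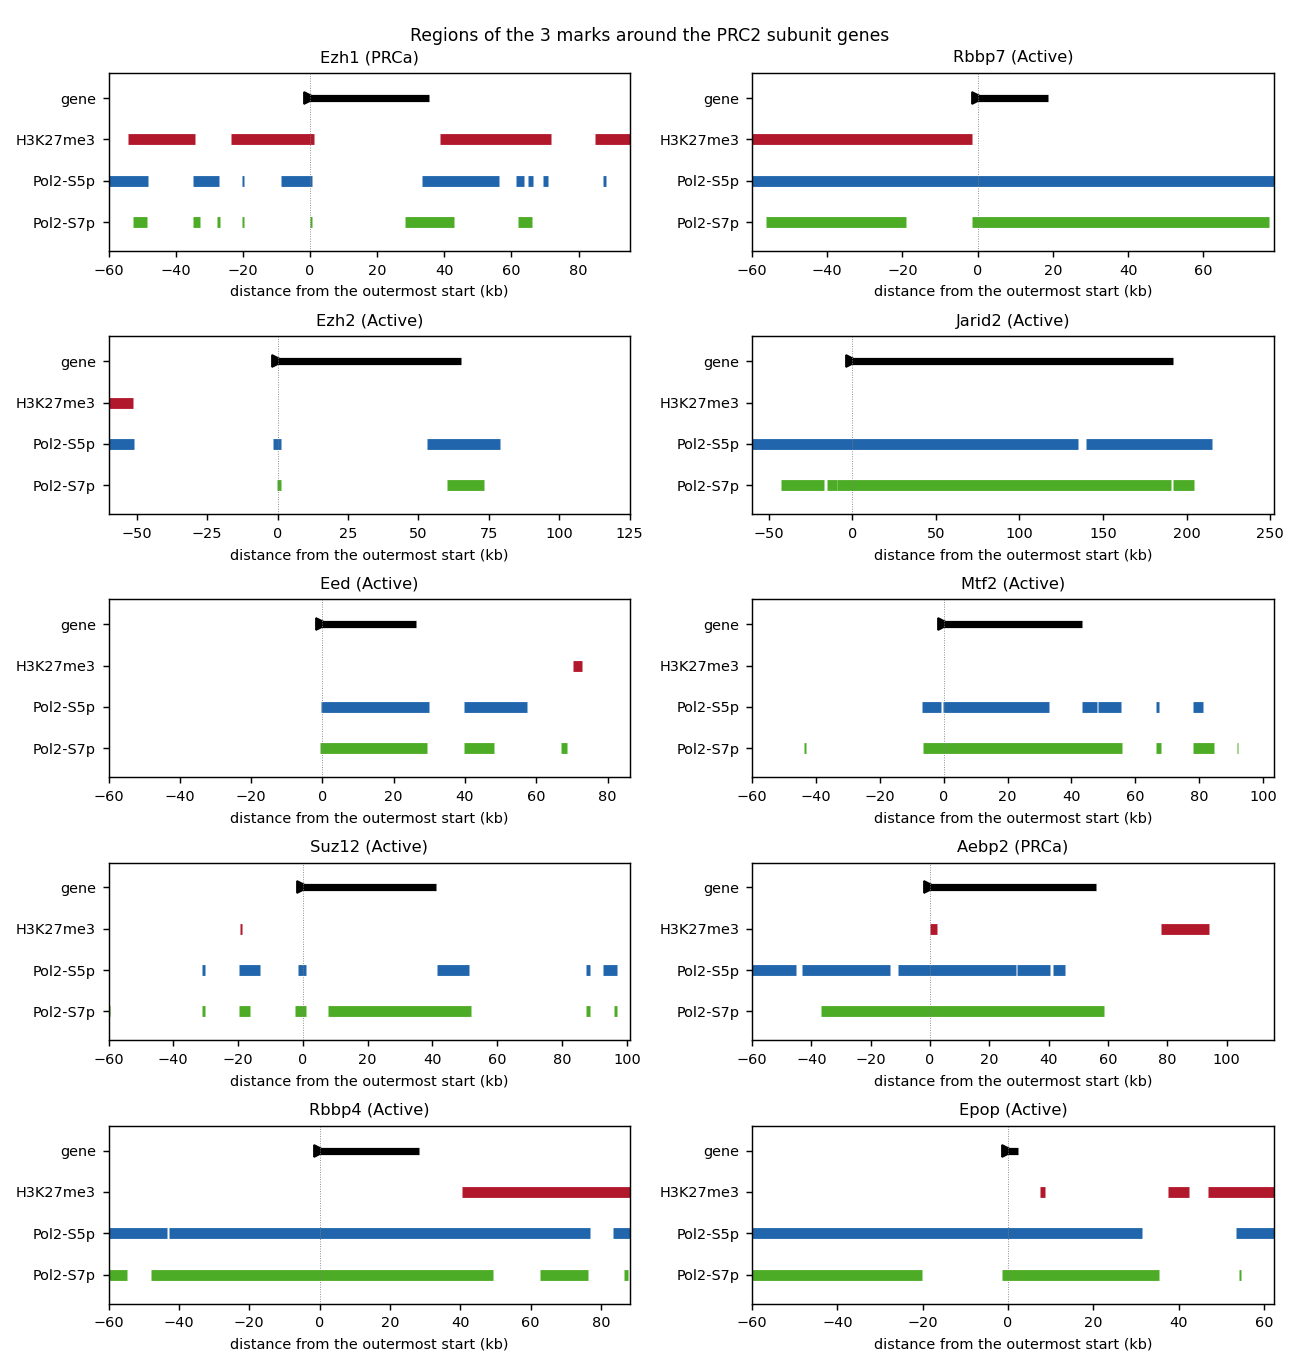
Regions of H3K27me3, Pol2-S5p and Pol2-S7p (coloured bars) along each PRC2 subunit gene (black bar with an arrowhead at the start), drawn in the direction of transcription with the distance from the outermost start in kb on the x axis. Ezh2 and Suz12 had narrow polymerase regions at the start, and H3K27me3 lay over the start of Ezh1 and Aebp2. At Rbbp7 an H3K27me3 region of low score ended where the Pol2-S7p region over the start began, and another Pol2-S7p region lay inside it.

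Over the whole gene, from the first to the last annotated base, the polymerase marks covered most members and H3K27me3 almost none. Pol2-S5p covered 100% of Eed, Rbbp4, Rbbp7 and Epop, 97.5% of Jarid2, 78.7% of Aebp2 and 76.0% of Mtf2. It covered 20.2% of Ezh2, 6.65% of Ezh1 and 2.18% of Suz12. Pol2-S7p covered 100% of Eed, Rbbp4, Rbbp7, Mtf2, Aebp2 and Epop, 99.5% of Jarid2 and 83.4% of Suz12, and 21.4% of Ezh1 and 9.21% of Ezh2. The members thus fell into 7 genes with most of their length under both forms and 3 (Ezh1, Ezh2 and Suz12) with at most 20.2% under Pol2-S5p. H3K27me3 covered 4.19% of Aebp2, 3.01% of Ezh1 and 0.208% of Jarid2, and no base of the other 7.

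The median over the 10 genes was 88.1% for Pol2-S5p and 100% for Pol2-S7p, and over the 7 Active members of at least 10 kb it was 97.5% and 100%. Among the 5487 Active genes with a length of at least 10 kb, the medians were 56.9% for Pol2-S5p and 74.3% for Pol2-S7p, with quartiles from 6.24% to 100% and from 6.02% to 100%. Those 7 members lay inside these ranges, except Suz12, which was under the lower quartile for Pol2-S5p. In the 3773 PRCa genes of that length the medians were 33.8% for Pol2-S5p, 13.2% for Pol2-S7p and 8.38% for H3K27me3. Aebp2 was above the polymerase medians of that class and below its H3K27me3 median. Ezh1 was below the Pol2-S5p and H3K27me3 medians and, through the region at its far end, above that of Pol2-S7p. Most of this cover came from wide regions of middle or low score. With the regions at or under the median score of each list left out, the median over the 10 genes was 1.97% for both forms.

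**Figure D3:**
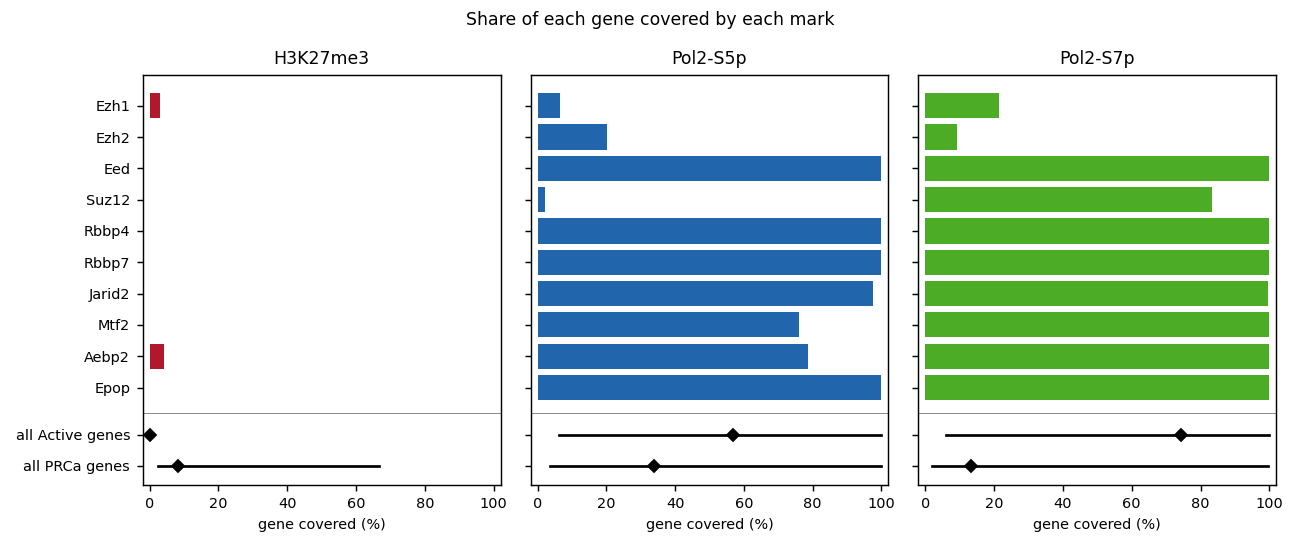
Share of each PRC2 subunit gene covered by regions of each mark (x axis, percent, bars from 0), with the median (diamond) and quartiles (line) of all Active and all PRCa genes with a length of at least 10 kb below. Pol2-S5p covered 100% of 4 members and 2.18% of Suz12, and H3K27me3 covered at most 4.19% of any member.

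The surroundings of the genes ranged from free of H3K27me3 to nearly filled on one side. From the outermost start to the nearest H3K27me3 region the distance was 0 at Ezh1 and Aebp2, 1403 bp at Rbbp7, 7503 bp at Epop, 18707 bp at Suz12, 40571 bp at Rbbp4, 51259 bp at Ezh2, 70184 bp at Eed, 173726 bp at Jarid2 and 293526 bp at Mtf2. The median was 29639 bp over the 10 genes and 45915 bp over the 8 Active ones. For the 7377 genes Active at the outermost start it was 34721 bp, with quartiles of 15056 and 70299 bp, and Rbbp7 and Epop lay nearer than that range and Jarid2 and Mtf2 farther.

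H3K27me3 covered 45.6% of the 100 kb on both sides of Ezh1, 45.1% at Rbbp7, 37.5% at Rbbp4, 30.8% at Epop and 20.3% at Ezh2. It covered 8.23% at Aebp2, 2.1% at Jarid2, 1.3% at Eed and 0.4% at Suz12, and Mtf2 had none. The median was 14.3% over the 10 members and 11.2% over the 8 Active ones, and over all Active genes it was 10.1% (quartiles 2.1% and 27.3%). Both member medians rest on the 20.3% at Ezh2. That cover was a region of 40600 bp in which 87.5% of the stretches of 30 bases occurred again, and the part of this recurrence was not tested. In 4 of the 5 genes with the most cover, H3K27me3 lay on one side. It was upstream of Rbbp7 (90.2% of that side, none downstream), upstream of Ezh2 (40.6%), downstream of Rbbp4 (75% of that side) and downstream of Epop (61.6%). Ezh1 had it on both sides, 43.7% upstream and 47.4% downstream. The cover at Rbbp7 was the region with a score above that of 4.15% of its list.

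Most neighbours with H3K27me3 lay at Ezh1. A total of 37 protein-coding genes had their start within 100 kb of either end of a member, of which 21 were Active, 9 PRCa, 4 PRCr, 2 without a mark and 1 with Pol2-S5p alone. H3K27me3 was thus at 13 of the 37, a share near the 37.7% of all protein-coding genes, of which 35.9% were Active and 23.9% PRCa. Ezh1 had 15 of the 37 and 9 of the 13 with H3K27me3. The same 24600 bp region that touched Ezh1 held the promoter of Ramp2, which encodes a partner of the calcitonin-like receptor, and Ramp2 was PRCa. Farther upstream, a region of 20200 bp held Cntd1, Coa3 and the kinase gene Wnk4, all PRCa. Downstream, a region of 33200 bp held Cntnap1, a gene of axon contacts, the chemokine receptor gene Ccr10, Plekhh3 and Tubg2, all 4 PRCr, and a region of 1000 bp touched the chosen start of Tubg1, which was PRCa there and Active at its outermost start. No PRCr neighbour lay at any other member. Around the other 9 genes H3K27me3 touched the promoters of Srcin1 near Epop (region of 86400 bp), of Dtnbp1 near Jarid2 (2600 bp) and of Sync and C77080 near Rbbp4 (both in the region of 75000 bp), and all 4 were PRCa. Ezh2, Eed, Suz12, Rbbp7, Mtf2 and Aebp2 had no protein-coding neighbour with H3K27me3 at its chosen start.

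Other genes of the Polycomb system were counted from lists chosen by function. Of 5 further PRC2-associated genes, the Polycomb-like gene Phf1 and Lcor and Lcorl, which encode alternative subunits, were Active. The Polycomb-like gene Phf19 was PRCa in an H3K27me3 region of 101000 bp, and Ezhip, an inhibitor of PRC2 that the annotation lists as AU022751, was PRCa in a region of 2000 bp. Ezhip had H3K27me3 over 82.7% of its length, against at most 4.19% in any of the 10 subunit genes. These are shares of genes of unlike length. The region at the Ezhip promoter was narrower than that at Aebp2 (2400 bp) or Ezh1 (24600 bp). Of the 3 Polycomb-like genes, Mtf2 and Phf1 were thus without H3K27me3 at the promoter and Phf19 was with it.

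Of 22 genes of Polycomb repressive complex 1 (PRC1), which ubiquitinates histone H2A, 12 were PRCa and 10 Active, and all 22 carried both polymerase forms. The Active ones included Cbx7, a chromodomain subunit that reads H3K27me3, Kdm2b, which binds unmethylated CpG, L3mbtl2, Pcgf2, Pcgf3 and Pcgf6. Pcgf3 was PRCa at its outermost start, which makes the count 13 at outermost starts. The share with H3K27me3 was 54.5% for PRC1 genes and 20% for PRC2 subunit genes, beside the 37.7% of all protein-coding genes. Of 15 genes for H3K27 demethylases and for histone methyltransferases and their partners that act against Polycomb repression, 12 were Active. Kmt2a, in a region of 10600 bp, and Kmt2c, in one of 2400 bp, were PRCa, and Uty, the Y-linked relative of Kdm6a, had Pol2-S5p alone at the chosen start and was Active at the outermost one. Dpy30, Active at the chosen start, had no mark at the outermost one. No difference between these lists was tested.

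**Figure D4:**
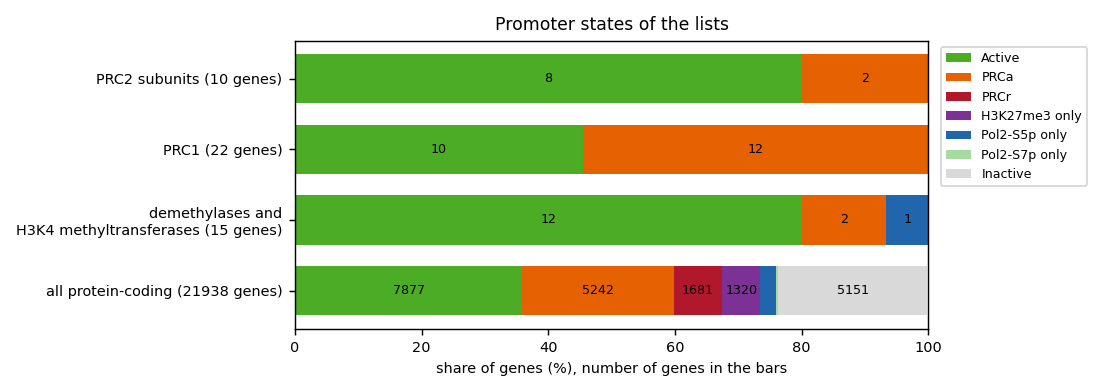
Share of genes (x axis, percent) in each promoter state for the 10 PRC2 subunit genes, 22 PRC1 genes, 15 demethylase and histone methyltransferase genes and 21938 protein-coding genes, with the number of genes in the bars. All 10 PRC2 genes were Active or PRCa, and the PRCa share was 2 of 10 against 12 of 22 for PRC1.

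The state of a gene depended on its regions' width and rank. Over 9 other settings, Ezh2 and Suz12 were Active in all 9, Epop in 8 and Eed and Mtf2 in 7. Rbbp4, Rbbp7 and Jarid2 were Active in 6, and lost polymerase marks when low-scoring regions or polymerase regions over 10 kb were left out. Aebp2 was PRCa in 6. It had no mark with either limit on score, and H3K27me3 alone with the limit on the width of polymerase regions. Ezh1 was PRCa in 5. It was PRCr when a mark had to cover 50% of the window, since Pol2-S7p covered 600 bp, had Pol2-S7p alone with either limit on score, and was Active without H3K27me3 regions over 10 kb. No member had H3K27me3 at its promoter among regions above the median score of 8.23, which the Ezh1 region missed with 8.14.

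**Figure D5:**
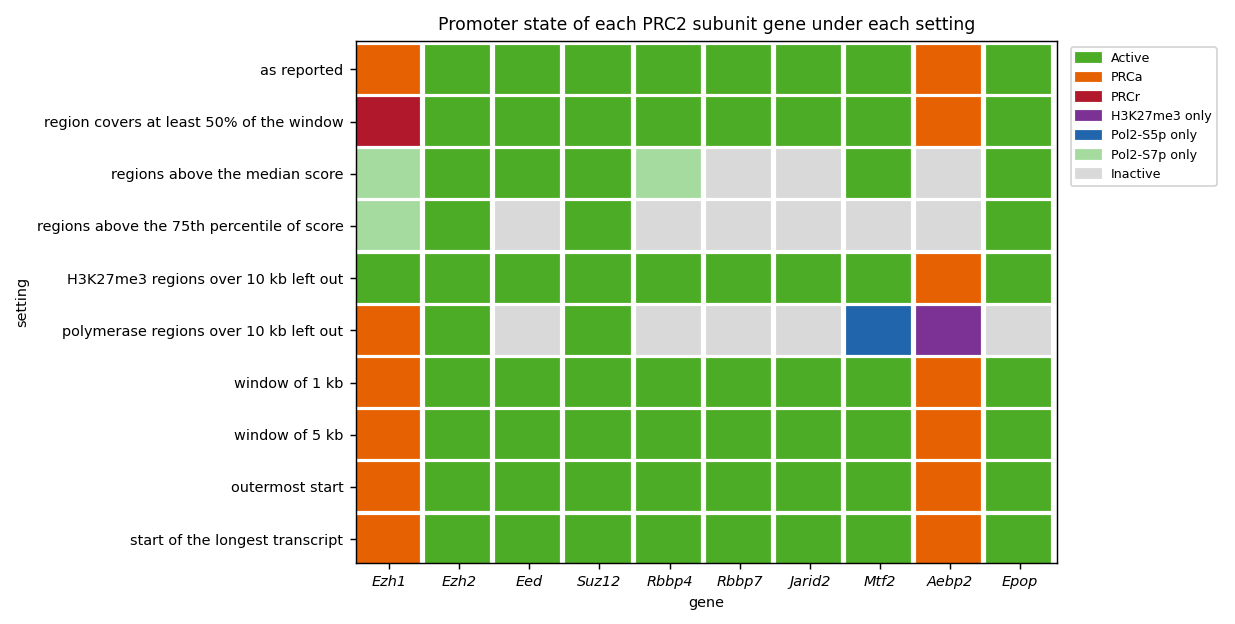
Promoter state (colour) of each PRC2 subunit gene (columns) as reported and under 9 other settings (rows), with the start chosen again except where the setting names it. Ezh2 and Suz12 kept the Active state in all rows, and Ezh1 changed in 4 of the 9.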

How the data were processed

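One ChIP-seq library per mark was used, 3 in all. Per the labels and the study's methods, the authors mapped 75 bp single-end reads to mm10, in which strain variants had been masked, using Bowtie2 2.3.4.3, and called regions per library with the Bayesian change-point caller at default settings. The deposited columns were position, width (bp, an other unit, a multiple of 200) and a score by the authors whose unit is not given in the sources used here. The files held no read counts, so depth was not used and no interval was computed. How well each gene's regions could be called at that depth is unknown.

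Gene models were GENCODE M21 (GRCm38). Python 3.11.15, NumPy 2.4.6 and Matplotlib 3.10.9 were used, and the functions were tested on simulated data. For each gene the start with the longest Pol2-S5p cover was taken, ties by Pol2-S7p cover, transcript length and identifier. The study ranked starts by reads and applied a read threshold, which lists of regions do not allow. Genes with overlapping windows were kept. The ranks of gene body cover that had been planned were replaced by medians and quartiles per state. Promoter sequences were RefSeq, GRCm38.p6. The members and lists were chosen with earlier results of these data known. Genes named were the 10 members, all PRC2-associated genes, up to 6 genes by alphabet outside the most frequent state of each other list, and protein-coding neighbours with H3K27me3 within 100 kb of either end of a member.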

Additional observations from a re-analysis of the deposited data

How the results depend on the processing

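Values were recomputed under each setting, with the start chosen again except where the setting itself names the start, and 66 of 98 values stayed within 1.5 times of the reported one. When each list was limited to scores above its median, the members with H3K27me3 fell to 0, with Pol2-S5p to 5, Active to 5 and PRCa to 0, and H3K27me3 was at 1 PRC2-associated gene and 0 demethylase and methyltransferase genes. Above the 75th percentile these counts were 0, 3, 3 and 0, with Pol2-S7p at 4 members, and H3K27me3 at 1, 0 and, for PRC1, 4 of 22 genes. Without H3K27me3 regions over 10 kb, H3K27me3 and PRCa held 1 member each, and H3K27me3 was at 1 PRC2-associated, 3 PRC1 and 1 demethylase and methyltransferase gene. Without polymerase regions over 10 kb, Pol2-S5p was at 4 members, Pol2-S7p at 3, 2 were Active and 1 PRCa. A required cover of 50% of the window left 1 PRCa member. Counted from the chosen start, the median gene body cover was 98.7% for Pol2-S5p and 100% for Pol2-S7p with all regions, and 1.10% and 1.75% above the median score, where over the whole gene it was 1.97% for both. Over the whole gene Eed and Epop kept 100% under both forms above the median score. H3K27me3 above the median score lay at a median of 109.7 kb from the chosen start and 87.5 kb from the outermost one, with 0.85% cover of both sides. With 50 kb on each side that cover was 7.11%. These settings use fewer regions or bases by construction.

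An outermost start together with a window of 5 kb or with the median score, the whole gene together with the median score, and a background of 17639 genes without overlapping windows (31.6% Active), were added after the data were seen. No paired analysis was possible because each mark had 1 library, and no replicate could be left out.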

Other observations

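In the H3K27me3 regions nearest 3 of the members, stretches of reference sequence recurred inside the region. The region 51259 bp before the start of Ezh2 (chromosome 6, 47646600 to 47687199) touched no gene, had a score of 131.1, the rank 3 of 17342 in its list, and 87.5% of its 30-base words occurred again inside it, most often 4321 bp apart. It held 160 unknown bases. A Pol2-S5p region with nearly the same ends lay over it and no Pol2-S7p region did. The region of 1200 bp near Epop was 90.7% repeat-masked, with 68.1% of its 30-base words seen again and a spacing of 40 bp, and that of 400 bp inside Jarid2 had 18.6% seen again with a spacing of 3 bp. In the regions nearest the other 7 members the share seen again was at most 2.99%. The repeat-masked share did not set the 3 apart, with 29.3% at Ezh2 and 27.5% at Jarid2 against 53.4% at Rbbp7, 37.5% at Ezh1 and 31.3% at Rbbp4. The part of recurring sequence in the distances and in the H3K27me3 cover given for Ezh2, Epop and Jarid2 was not tested.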
